A study of Mus musculus with 6 samples.

Results

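The genes described here encode the fibulins, the fibrillins and the other structural proteins of elastic fibres. They were measured in 2 populations sorted from the basal and stem cell fraction of the developing mouse prostate. They are 10 genes: the fibulins Fbln1, Fbln2, Fbln5, Efemp1 and Efemp2, elastin (Eln), the fibrillins Fbn1 and Fbn2, and the microfibril-associated glycoproteins Mfap4 and Mfap5. They were read by 13 of the 55681 probes of the array, of which 11 probes for 9 genes could be compared between the populations. Fbln5 was the gene that could not. The genes were chosen by name for their shared function, with the difference between the same 2 populations already known, so their differences are given as a description and carry no test.

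Prostate cells came from untreated 6-day-old male FVB/N mice of the Tg 11.5kb-GFP line, in which the s-SHIP promoter, an internal promoter of the SHIP1 gene Inpp5d, drives GFP. Both populations carried the transgene. They were sorted as negative for the lineage markers Ter119, CD31 and CD45 and positive for CD49f and Sca-1 (LSC), and then parted by GFP into LSC GFP+ and LSC GFP- cells. Each population was measured in 3 independent samples on 1-colour arrays after amplification of its RNA, and whether a sample pooled animals was not given in the sources used here. The GFP of this line also marks vascular smooth muscle cells. A p-value below refers only to the spread between these samples.

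Elastic fibres are built outside the cell. Fibrillins form beaded microfibrils, on which elastin is laid down and crosslinked by the lysyl oxidases, and fibulins and microfibril-associated proteins help to place elastin and the enzymes there. Fibrillin microfibrils also hold latent TGF-β in reserve, and several fibulins are found in basement membranes, the sheets on which the basal cells of an epithelium rest. In adult tissue these genes are mostly known as products of fibroblasts and smooth muscle cells.

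All values are log2 processed signals from which the 75th percentile of the array was subtracted, so that 0 is the signal of a probe at that percentile. Probes differ in how they bind, and the level of a probe is compared only with the same probe on other arrays. A difference is LSC GFP+ minus LSC GFP- on this log2 scale, with the standard error (SE) or the 95% interval of limma's fit over all probes. The arrays had between 36651 and 42123 probes well above background, with no saturated spot, and arrays of the same population correlated at 0.966 to 0.981. The probe for Inpp5d stayed at background on all 6 arrays.

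Sequences of probes and promoters are shown because they fix what was read and what lies before the genes that differed. The probe of Fbln1 first shown is the one that ends at a stop codon in an open reading frame, with the stop codon in capitals.

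Fbln1 probe A_55_P2088601 (mm9, chr15:85115550-85115609, plus strand): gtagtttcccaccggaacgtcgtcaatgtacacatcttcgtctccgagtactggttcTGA

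The next set is a stretch of 30 bases from the probes of Fbln2, Fbln5 and Mfap4, which hold a polyadenylation hexamer (AATAAA or ATTAAA, in capitals), the letters that many transcripts carry near their 3′ end.

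Fbln2 probe A_52_P590535 (mm9, chr6:91222118-91222177, plus strand): ccttcatccactgtgttcctcaATTAAAaa
Fbln5 probe A_55_P2088615 (mm9, chr12:102988153-102988212, minus strand): acagaggtatccagactgATTAAAtatttg
Mfap4 probe A_55_P2005470 (mm9, chr11:61302147-61302206, plus strand): agcagaggtctcAATAAActtcaggatctg

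The last set holds the promoters of Fbln1 and Fbln2, the fibulins with the higher signal in LSC GFP+ cells, from 250 bases before to 50 bases after the start (RefSeq, GRCm38.p6). Capitals mark the GC box GGGCGG, the E-box CACGTG and the TCF/LEF site CTTTGA, searched on both strands.

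Fbln1 promoter (GRCm38.p6, chr15:85205758-85206057, plus strand): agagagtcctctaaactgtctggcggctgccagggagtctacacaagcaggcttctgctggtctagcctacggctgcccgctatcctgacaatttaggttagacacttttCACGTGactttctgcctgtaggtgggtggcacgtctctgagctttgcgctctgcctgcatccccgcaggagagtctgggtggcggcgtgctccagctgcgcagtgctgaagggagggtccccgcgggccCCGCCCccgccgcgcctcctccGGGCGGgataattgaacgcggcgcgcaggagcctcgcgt
Fbln2 promoter (GRCm38.p6, chr6:91212514-91212813, plus strand): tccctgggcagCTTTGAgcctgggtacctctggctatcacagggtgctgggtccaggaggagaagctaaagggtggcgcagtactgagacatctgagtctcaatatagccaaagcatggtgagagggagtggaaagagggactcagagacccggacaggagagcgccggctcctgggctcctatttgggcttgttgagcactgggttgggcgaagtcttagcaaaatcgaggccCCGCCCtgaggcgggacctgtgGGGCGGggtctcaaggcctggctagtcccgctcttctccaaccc

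Both promoters held 2 GC boxes, a motif found in 35.7% of 32851 promoters of this length. The E-box of Fbln1 is found in 7.15% of them and the TCF/LEF site of Fbln2 in 16%. Neither promoter held the TATA box TATAAA (13.6% of promoters) or the AP-1 site TGANTCA (7.81%). A second start of Fbln1, whose window overlaps the one shown, held the E-box and no GC box. Promoter sequences were matched for 6 of the 10 genes, and the windows of the other genes with a match were searched in the same way: Fbn1 held 1 GC box, Efemp1 held 1 GC box and 1 AP-1 site, the 3 starts of Efemp2 held 2, 5 and 7 GC boxes, and the 2 starts of Fbln5 held 2 GC boxes and 1 TCF/LEF site, respectively. The letters are a description of the windows and were not tied to any measured difference.

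Fbln1 and Fbln2 had the higher signal in LSC GFP+ cells on every array, and Mfap4 and Mfap5 had the lower. Efemp1, Efemp2, Eln and Fbn1 had intervals that included 0, the 2 probes of Fbn2 disagreed, and Fbln5 was not compared. Of the 11 member probes compared, 6 passed an unadjusted p of 0.05, 3 higher and 3 lower in LSC GFP+ cells, and none passed after adjustment, where the lowest adjusted p of limma was 0.0993. The methods' t-test also called 6 at the unadjusted threshold and none after adjustment. Over all 37005 probes compared, 7.9% passed the unadjusted threshold, 3.38% higher and 4.53% lower, and 0.0027%, which is 1 probe, passed after adjustment. Because the genes were chosen with this contrast known, nothing is read from their count against that share. The populations did not overlap for 7 member probes, 4 higher and 3 lower, against 12.3% of all probes (6.61% higher, 5.65% lower). With 1 probe per gene, the brightest, 4 of 9 genes passed the unadjusted threshold, 2 in each direction, and without LSC GFP+ replicate 3 this was 7 genes, with Eln, Efemp1 and Efemp2 added. The median difference over the 9 genes was -0.22, beside -0.0044 over all probes.

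**Figure D1:**
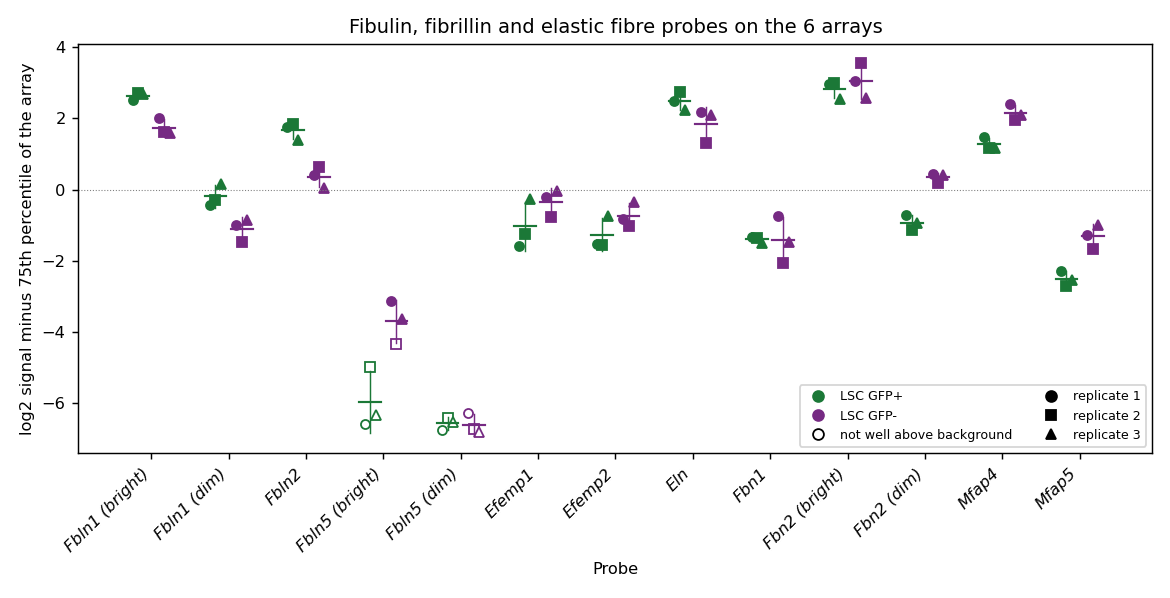
Log2 signal minus the 75th percentile of the array (y axis) for each of the 13 probes (x axis) on the 6 arrays. Green marks LSC GFP+ and purple LSC GFP-, symbol shape marks the replicate, horizontal lines are means and vertical lines SD (n = 3), and open symbols were not well above background. The green and purple symbols are apart for both Fbln1 probes, Fbln2, Eln, the dimmer Fbn2 probe, Mfap4 and Mfap5 among the probes compared, and levels are not to be set against each other between probes.

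Of the 5 fibulins, Fbln1 and Fbln2 kept the populations apart, both higher in LSC GFP+ cells, Efemp1 and Efemp2 overlapped, and Fbln5 was not compared. Fbln1, a fibulin of basement membranes and elastic fibres, was read by its brighter probe (mm9, chr15:85115998-85116057) at 2.53, 2.72 and 2.67 in LSC GFP+ replicates 1, 2 and 3, and at 2.01, 1.61 and 1.60 in the LSC GFP- replicates in the same order. Every LSC GFP+ array was above every LSC GFP- array, with LSC GFP- replicate 1 the nearest. The difference was 0.90 (SE 0.20, n = 3 per population), a 1.87-fold higher signal. The dimmer probe of Fbln1, 388 bases upstream and shown above, gave -0.43, -0.30 and 0.17 in LSC GFP+ and -0.98, -1.47 and -0.86 in LSC GFP- cells. It again kept the populations apart, with a difference of 0.92 (SE 0.25), so the 2 probes gave differences within 1 SE of each other.

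Fbln2, a fibulin that binds elastin, fibrillin and basement membrane proteins, was at 1.76, 1.85 and 1.38 in LSC GFP+ cells and at 0.41, 0.64 and 0.061 in LSC GFP- cells. All LSC GFP+ arrays were above all LSC GFP- arrays, and replicate 3 was the lowest in each population. The difference was 1.30 (SE 0.23), or 2.46-fold, the most positive among the members. Within replicate numbers it was 1.35, 1.22 and 1.32, so that the 3 pairs differed by less than the SE.

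Fbln5, which binds both elastin and cell-surface integrins and is needed for elastic fibres to form, was at or near background. Its brighter probe was at -6.58, -4.97 and -6.32 in LSC GFP+ cells and at -3.12, -4.33 and -3.63 in LSC GFP- cells. It was not well above background on any LSC GFP+ array and was so on 2 of the 3 LSC GFP- arrays, replicates 1 and 3, and it was therefore not tested. The mean of LSC GFP- cells was 1.65-fold higher than the lowest signal that counts as measured in LSC GFP+ cells. This is not a strict bound, because some probes above that lowest signal were not well above background either. The mean also includes LSC GFP- replicate 2, which was not well above background. The second probe of Fbln5, 3215 bases away, never rose well above background and lay between -6.79 and -6.26.

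Efemp1 and Efemp2 encode fibulin-3 and fibulin-4, of which the latter brings lysyl oxidase to elastin. Efemp1 was at -1.58, -1.24 and -0.26 in LSC GFP+ cells and at -0.20, -0.78 and -0.044 in LSC GFP- cells. LSC GFP+ replicate 3 lay among the LSC GFP- arrays, and the difference was -0.69 (95% interval -1.53 to 0.16), which was -1.07 without that array and -0.41 without LSC GFP+ replicate 1. Efemp2 was at -1.52, -1.55 and -0.73 in LSC GFP+ and at -0.83, -1.01 and -0.34 in LSC GFP- cells, again with LSC GFP+ replicate 3 inside the LSC GFP- range, and a difference of -0.54 (-1.22 to 0.15), which was -0.81 without that array and -0.34 without LSC GFP- replicate 3. The differences within replicate numbers were all negative, -1.38, -0.47 and -0.22 for Efemp1 and -0.69, -0.53 and -0.39 for Efemp2. In the fit blocked by replicate number both passed the unadjusted threshold, which made 8 member probes, 3 higher and 5 lower, beside 14.8% of all probes in that fit.

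Elastin, the protein that gives the fibre its recoil, showed a small and uneven difference. Eln was at 2.49, 2.74 and 2.23 in LSC GFP+ cells and at 2.17, 1.31 and 2.09 in LSC GFP- cells. The populations did not overlap, but the gap between the lowest LSC GFP+ array and the highest LSC GFP- array was only 0.058. The difference was 0.63 (95% interval -0.021 to 1.28), and within replicate numbers it was 0.32, 1.43 and 0.14, so that replicate 2, with the low LSC GFP- array, made most of it. Without LSC GFP- replicate 2 the difference was 0.36, and without LSC GFP- replicate 1 it was 0.79. The latter passed the unadjusted threshold in limma. So did the difference under normexp correction, an intensity trend, a filter for all 6 arrays, and without LSC GFP+ replicate 3. It did not pass in the main fit or under the other alternatives.

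The fibrillins gave no common direction. Fbn1, the main fibrillin of adult tissue, was at -1.33, -1.35 and -1.49 in LSC GFP+ cells and at -0.73, -2.06 and -1.47 in LSC GFP- cells. The LSC GFP+ arrays lay together inside the wider LSC GFP- range, and the difference was 0.035 (95% interval -0.72 to 0.79). It was -0.29 without LSC GFP- replicate 2, 0.38 without LSC GFP- replicate 1 and -0.039 after normexp background correction, so that no direction is given.

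Fbn2, a fibrillin made mainly during development, had 2 probes 3472 bases apart that disagreed. The brighter probe was at 2.95, 2.99 and 2.55 in LSC GFP+ and at 3.04, 3.57 and 2.56 in LSC GFP- cells, with overlapping populations and a difference of -0.22 (95% interval -0.89 to 0.44), which was 0.032 without LSC GFP- replicate 2. The dimmer probe was at -0.70, -1.13 and -0.94 in LSC GFP+ and at 0.43, 0.19 and 0.42 in LSC GFP- cells. There all LSC GFP+ arrays were lower, with a difference of -1.27 (-1.74 to -0.80), which is a 2.41-fold higher signal in LSC GFP- cells. The mean over both probes differed by -0.75, and which probe stands for the gene was not tested.

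**Figure D2:**
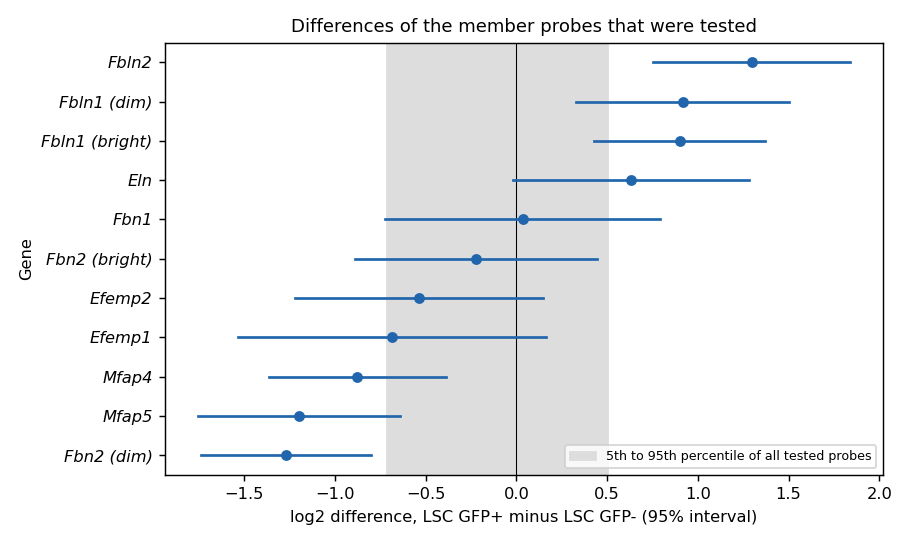
Log2 difference, LSC GFP+ minus LSC GFP- (x axis), of the 11 member probes compared (y axis), with the 95% interval of limma as a line, n = 3 per population. The grey band spans the 5th to the 95th percentile of the differences of all 37005 probes, -0.71 to 0.51, and the points run from 1.30 for Fbln2 to -1.27 for the dimmer Fbn2 probe.

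Mfap4 and Mfap5 were lower on every LSC GFP+ array. Mfap4, a glycoprotein that binds elastin and fibrillin, was at 1.49, 1.18 and 1.17 in LSC GFP+ cells and at 2.40, 1.96 and 2.11 in LSC GFP- cells. No LSC GFP+ array reached the lowest LSC GFP- array. The difference was -0.88 (SE 0.21), a 1.84-fold higher signal in LSC GFP- cells, and within replicate numbers it was -0.91, -0.78 and -0.94.

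Mfap5, which binds fibrillins and Notch ligands, was at -2.28, -2.71 and -2.53 in LSC GFP+ cells and at -1.28, -1.67 and -0.99 in LSC GFP- cells. The populations were again apart. The difference was -1.20 (SE 0.24), or 2.29-fold higher in LSC GFP- cells, and within replicate numbers it was -1.004, -1.04 and -1.55. After normexp background correction it was smaller, at -0.76, in the same direction.

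**Figure D3:**
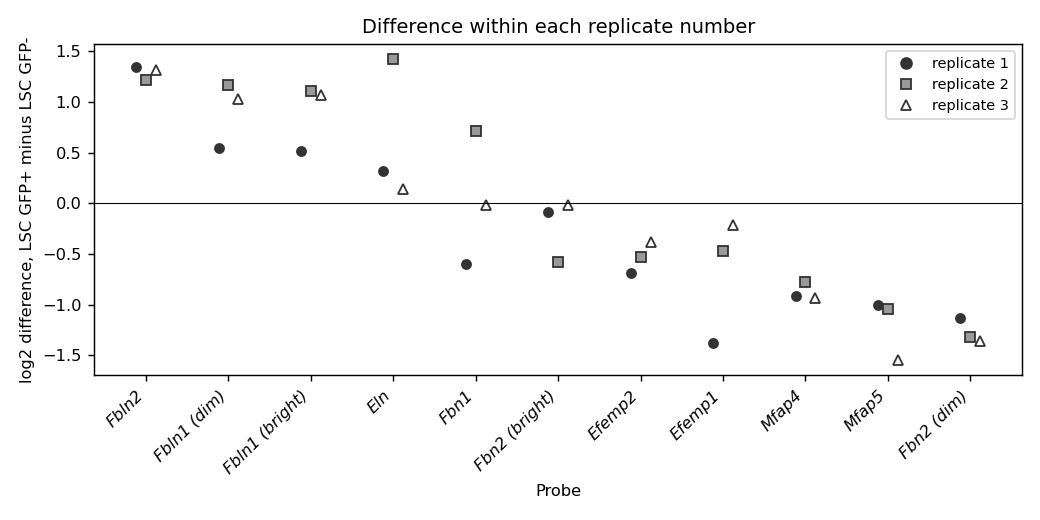
Log2 difference, LSC GFP+ minus LSC GFP- (y axis), within each replicate number (symbols) for the 11 member probes compared (x axis). The 3 symbols lie on the same side of 0 for every probe but Fbn1, and they are closest together for Fbln2, at 1.22 to 1.35, and for Mfap4, at -0.94 to -0.78.

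Other genes of the elastic fibre were taken from a list of 37, of which 30 had a probe that could be compared. At the brightest probe of each gene, limma called 11 at the unadjusted threshold, 5 with a positive and 6 with a negative difference, 19 did not pass, and none passed after adjustment over all probes. The methods' t-test gave 9 and none. Against the 7.9% over all probes this was 36.7%, and the median difference over the list was -0.19. The list was chosen with earlier results of these data known, and the 36.7% counts genes where the 7.9% counts probes. Nothing is read from this share. The count fell to 6 without LSC GFP+ replicate 2 and to 6 without LSC GFP- replicate 1. It was 7 without LSC GFP- replicate 3.

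Vcan, the proteoglycan versican that binds fibulins and fibrillins, had the most positive difference of the list. It was at 5.82, 5.86 and 5.58 in LSC GFP+ cells and at 4.70, 4.31 and 4.43 in LSC GFP- cells. The populations were well apart, and the difference was 1.27 (SE 0.20), with an adjusted p of 0.0993 in limma. Its other probes gave 1.32 and, with overlapping populations, 0.44. Of the 6 integrin subunits listed, which bind fibrillin, fibulins or latent TGF-β, 3 passed with smaller differences: Itgb5 0.63, Itgb8 0.62 and Itgav 0.60, each with no overlap between the populations. Their adjusted p-values lay between 0.466 and 0.483 in limma. A second probe of Itgav, with overlapping populations, gave 0.49. Other subunits did not pass. Itgb6, which also binds latent TGF-β, was at -0.55 with all 3 replicate numbers negative and an unadjusted p of 0.075 in limma, against 0.018 in the blocked fit, and its second probe was at -0.96. Itgb1 was at 0.34 with overlapping populations, and its second probe, with populations apart, gave 0.37. Adamts17, a protease of the fibrillin network, differed by 0.53, and its second probe by 0.21. Itgb3 did not pass at its brighter probe (-0.20), and its dimmer probe, with populations apart, gave -1.12.

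Of the 5 lysyl oxidases listed, Lox and Loxl3 passed the unadjusted threshold, both lower in LSC GFP+ cells. Lox, the lysyl oxidase that crosslinks elastin and collagen, was at -3.35, -5.00 and -4.04 in LSC GFP+ cells and at -2.005, -2.52 and -2.85 in LSC GFP- cells. It was well above background on 2 of the 3 LSC GFP+ arrays and on all LSC GFP- arrays. The difference was -1.67 (SE 0.42, adjusted p = 0.242 in limma), and a second probe, with overlapping populations, gave -1.91 (SE 0.69). Loxl3, a lysyl oxidase-like enzyme, differed by -0.91 (SE 0.33). After normexp background correction the differences were smaller, -0.63 for Lox and -0.45 for Loxl3.

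Loxl1, the relative of Lox that acts with Fbln5, did not pass at its brighter probe, with a difference of -0.68 and populations that did not overlap. Its unadjusted p was 0.051 in limma and 0.034 in the blocked fit. The dimmer probe was at background on every LSC GFP+ array and well above it on every LSC GFP- array. Its difference was -1.89 (adjusted p = 0.261 in limma). With LSC GFP+ signals raised to no less than the lowest signal well above background there, the LSC GFP- mean was 2.21-fold higher. Some probes above that lowest signal were still not well above background, so the value is not a strict bound. Loxl2 differed by -0.35 and did not pass, its other probes gave -0.56 and 0.029, and neither probe of Loxl4 could be compared.

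Emilin1, a glycoprotein of the interface between elastin and microfibrils, and its relative Emilin3 were lower in LSC GFP+ cells at the unadjusted threshold. Emilin3 was at -4.31, -5.72 and -5.03 in LSC GFP+ and at -2.54, -3.70 and -3.24 in LSC GFP- cells, a difference of -1.86 (SE 0.41), and Emilin1 differed by -0.85 (SE 0.22). Thsd4, which promotes the assembly of fibrillin microfibrils, was at -4.25, -5.09 and -4.78 in LSC GFP+ and at -2.45, -3.38 and -3.002 in LSC GFP- cells, a difference of -1.77 (SE 0.31, adjusted p = 0.123 in limma). Each of these 3 genes was well above background on 1 of the 3 LSC GFP+ arrays and on all 3 LSC GFP- arrays, so the size of the difference rests on signals near background. After normexp background correction it was -0.64 for Emilin3, -0.37 for Emilin1 and -0.70 for Thsd4. Tgfb3, a TGF-β ligand held on microfibrils, differed by -0.58 (SE 0.23).

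The closest relatives of the members did not pass the threshold. Mfap2, the microfibril-associated glycoprotein most like Mfap5, was at 1.23, 1.15 and 1.28 in LSC GFP+ and at 1.64, 0.69 and 1.38 in LSC GFP- cells, with a difference of -0.020 (95% interval -0.64 to 0.60). The LSC GFP+ arrays lay inside the LSC GFP- range. Fbln7 differed by -0.18 (-0.74 to 0.38), and its second probe by 0.11. Hmcn1, a large fibulin-like protein, was not compared, with 1 of its 2 probes well above background on a single LSC GFP- array. The latent TGF-β binding proteins, which share domains with fibrillins, differed by -0.48 for Ltbp1, 0.29 for Ltbp2, -0.0031 for Ltbp3 and 0.36 for Ltbp4. Ltbp1 had no overlap between the populations, and its unadjusted p in limma was 0.064, against 0.049 in the blocked fit.

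**Figure D4:**
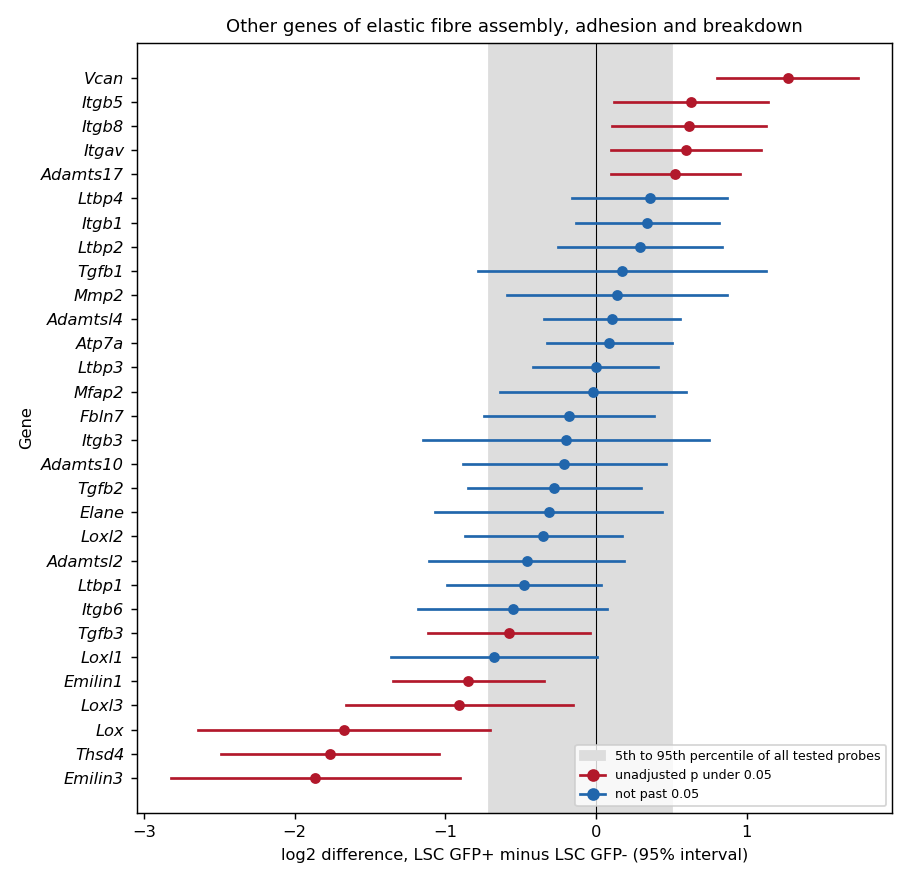
Log2 difference, LSC GFP+ minus LSC GFP- (x axis), of the 30 compared genes of the elastic fibre list (y axis) at their brightest probe, with the 95% interval of limma, n = 3 per population. Red marks the 11 genes with an unadjusted p under 0.05, which run from 1.27 for Vcan to -1.86 for Emilin3, blue the others, and the grey band the 5th to 95th percentile of all probes.

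Most markers of mesenchymal cells had the lower signal in LSC GFP+ cells. Of 10 stromal markers 6 were lower in LSC GFP+ cells at the unadjusted threshold, and 1, Dcn, was higher (1.19). Among the lower were Col1a1 (-2.18), Col1a2 (-2.15), Col3a1 (-1.97) and Pdgfra (-2.36). Pdgfrb (-1.15), Thy1 (-0.88) and Vim (-0.80) did not pass, and their populations overlapped. Twist1 stayed at background on the LSC GFP+ arrays. The summed signal of the list, with the 75th percentile set to 1, was 19.5 to 25.8 in LSC GFP+ and 21.8 to 62.4 in LSC GFP- cells, where replicate 1 was the highest. Of 7 smooth muscle markers 6 could be compared and all 6 were lower, among them Acta2 (-2.13) and Myh11 (-2.01), with sums of 6.23 to 10.0 in LSC GFP+ and 19.6 to 37.8 in LSC GFP- cells. Myocd was well above background on a single LSC GFP- array. Over all probes 7.9% passed the unadjusted threshold, 3.38% higher and 4.53% lower in LSC GFP+ cells. No marker of any list passed after adjustment, and nothing is read from the marker counts against these shares.

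Fewer cells of a type and less RNA per cell cannot be told apart in these bulk samples. In the paper, stromal cells are the fraction with Sca-1 and without CD49f, and vascular smooth muscle cells with high GFP carried little or none of either marker. The paper also describes the LSC gate as holding only epithelial cells with CD24. Whether stromal or smooth muscle cells were left in the sorted samples was not tested. The part of the stromal and smooth muscle markers in the differences of Mfap4, Mfap5, Lox, Emilin1, Emilin3 and Thsd4 was not tested, nor was it for the higher signal of Fbln1, Fbln2 and Vcan, which ran against most of these markers and with Dcn.

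Basal markers moved the other way. Of 6, 4 were higher in LSC GFP+ cells at the unadjusted threshold, Krt17 (1.40), Krt14 (1.18), Krt5 (0.70) and Krt15 (0.52), beside 3.38% of all probes. None passed after adjustment. The sums were 218 to 237 in LSC GFP+ and 165 to 176 in LSC GFP- cells. The luminal keratins Krt8 (-0.30), Krt18 (-0.22) and Krt19 (-0.24) did not pass. None of 3 epithelial markers passed, with sums of 88.5 to 117 and 92.5 to 127, and Epcam, Cdh1 and Cd24a were each well above background on all 6 arrays. The part of the basal markers in the higher signal of Fbln1 and Fbln2 was not tested.

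Endothelial, immune, and glial and neuronal markers gave no call at the unadjusted threshold in the fit without a block. For endothelial cells 3 of 5 markers were compared, with sums of 5.59 to 6.51 in LSC GFP+ and 5.82 to 6.64 in LSC GFP- cells, mostly from Kdr, and Cdh5 was well above background on LSC GFP- replicate 3 alone. Immune markers, all 5 compared, summed to 25.4 to 30.8 and 25.8 to 26.6, mostly from Csf1r, and Ptprc, which encodes CD45, was well above background on all 6 arrays at -1.54 to -1.39. For glial and neuronal cells 3 of 5 were compared, and the sums ranged widely within each population, 1.31 to 8.70 and 2.45 to 28.3, with replicate 1 the highest in both. In the blocked fit Tubb3 (-1.30, unadjusted p = 0.0012 in limma) and Sox10 (-0.66, 0.026) passed as lower in LSC GFP+ cells. Of the genes behind the sorting markers, Itga6 (CD49f) differed by 0.25 and Ly6a (Sca-1) by -0.36, neither past the threshold.

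**Figure D5:**
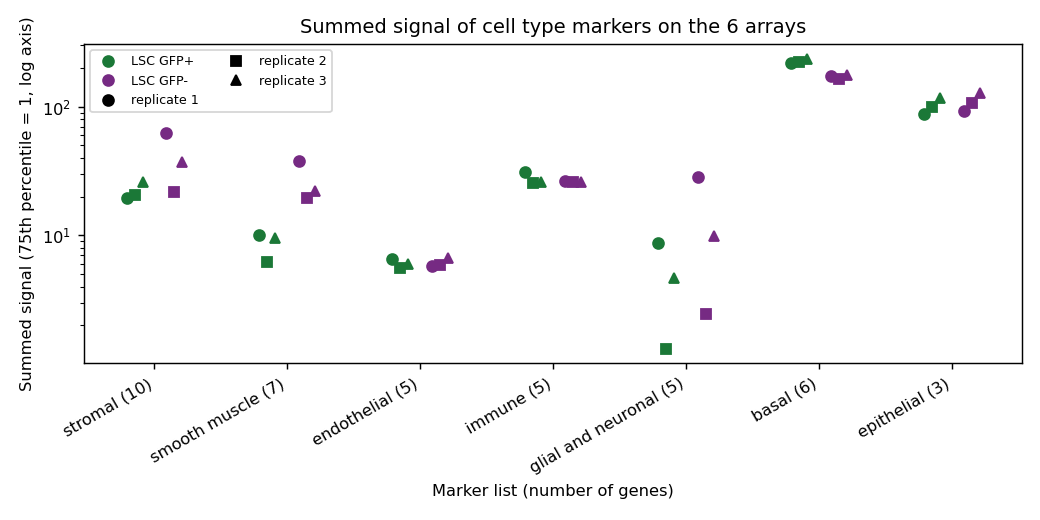
Summed signal of 7 lists of cell type markers (x axis, number of genes in brackets) on each of the 6 arrays, on a log axis with the 75th percentile of the array set to 1 (y axis), green for LSC GFP+, purple for LSC GFP- and symbol shape for the replicate. Smooth muscle sums lie at 6.23 to 10.0 against 19.6 to 37.8 and basal sums at 218 to 237 against 165 to 176, without overlap, while the stromal sums overlap.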

How the data were processed

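RNA of 3 LSC GFP+ and 3 LSC GFP- samples was hybridised by the authors to 1-colour Agilent arrays, all on 1 slide. The deposited values are processed signal intensity per spot, background-subtracted and not normalized between arrays, from Feature Extraction 11.0.1.1 per the file headers (10.7.3.1 in the submitters' processing notes). The table of the whole series holds the same intensity values, rounded to 3 significant digits, and was an alternative.

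Outlier spots were left out, the log2 signal was reduced by the 75th percentile of the array, and replicate spots were averaged. Probes were compared when well above background (over 50% of their spots) on all 3 arrays of at least 1 population. Populations were compared with limma 3.58.1 in R 4.3.3, two-sided, with Benjamini-Hochberg adjustment over all 37005 probes, and the script was tested on simulated data. Probe positions are those of mm9 in the array design. RefSeq accessions were matched to symbols (GRCm38.p6) for 26582 probes.

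The members and lists were chosen with earlier results of these data known. The text names every member, the list genes past an unadjusted p of 0.05 or in a member's family, the cell type markers by list (some are not reported here), Inpp5d, and the 5 genes most like the members. Same-numbered samples deviated together (correlations across probes of 0.433, 0.277 and 0.668, against -0.547 to 0.223 for samples with different numbers). The numbers in the labels were therefore taken to pair the samples. The main fit left the pairing out, and a fit with the number as a block was an alternative. Further alternatives were normexp (offset 50), quantile and median scaling, other filters, an intensity trend, the methods' t-test, the mean over probes, and each array left out. The number of arrays limits the precision: with 3 arrays against 3, the lowest exact permutation p is 0.1.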

Additional observations from a re-analysis of the deposited data

How the results depend on the processing

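Under the 16 alternatives the differences of Fbln1, Fbln2, Mfap4 and Mfap5 kept their direction and stayed past the unadjusted threshold. The count of member genes past it, 4, was 4 to 7 when each array was left out in turn, with 7 without LSC GFP+ replicate 3, and that of the elastic fibre list, 11, was 6 to 10. Over all probes the count of 2925 was 2283 to 4061 when each array was left out, and 5480 with the replicate number as a block (2495 higher, 2985 lower, 0 after adjustment). The block took the member genes from 4 to 6 and the list from 11 to 15. The difference of Mfap2 turned positive under median scaling (0.049) and ranged from -0.29 to 0.18 without single arrays, and that of Ltbp3 under normexp (0.0096), median scaling (0.066) and, without single arrays, ranged from -0.054 to 0.043. Neither had passed the threshold. Tgfb3 lost its call in 8 alternatives, Adamts17 in 6, Loxl3 and Itgb8 in 4 each, and Itgav and Itgb5 in 3 each. Vcan kept its call throughout, and Lox, Thsd4, Emilin1 and Emilin3 kept theirs wherever they were compared. Lox, Thsd4 and the 2 emilins met the main filter only through the LSC GFP- arrays, where they are high. Under the filter for all 6 arrays they were not compared. There the list gave 8 calls among 24 genes, 5 higher and 3 lower, beside 2504 of 33845 probes. The median difference of the list was then 0.043. Normexp made the differences of Lox, Loxl3, Thsd4, Emilin1 and Emilin3 smaller (-0.63, -0.45, -0.70, -0.37 and -0.64), as well as those of Loxl1 (-0.30) and Itgb8 (0.35), and left Vcan at 1.27. With no filter on dim probes, and separately without LSC GFP- replicate 2, Fbln5 was compared and passed as lower in LSC GFP+ cells. No LSC GFP+ array was well above background for it. Replicate 2 was the only LSC GFP- array not well above background. Leaving it out thus let the probe meet the filter through LSC GFP- cells alone, so nothing is read from either call. The cause of the changes between settings was not tested. Low signal over background limits Fbln5, Lox, Thsd4 and the emilins, and median scaling moved the median of all probes most, from -0.0044 to 0.065.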

Other observations

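The mean profile of the 9 compared members, each centred over the 6 arrays, was nearly flat, and members with opposite differences enter it. It was -0.059, -0.045 and -0.0062 in LSC GFP+ replicates 1 to 3 and 0.22, -0.16 and 0.059 in the LSC GFP- replicates. The genes with the most similar pattern, by Pearson r over these 6 arrays among 2164 probes with an SD of at least 0.5, were Olfm1 (0.974), Lhfp (0.973), Thbs2 (0.963), Dpysl2 (0.958) and Olfml2b (0.958). In all 5 the highest array was LSC GFP- replicate 1 and the lowest LSC GFP- replicate 2.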
